A study of Mus musculus with 18 samples.

Results

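Genes listed with endothelial tip cells or with the angiopoietin-Tie system, 9 in all, were followed across the whole RNA-sequencing table: Esm1, Apln, Aplnr, Cxcr4, Pgf, Plvap, Angpt2, Tek and Tie1. They were chosen by name, with earlier results of these data known. All 9 were among the 16248 genes of the table, and all 9 passed the filter on low values. The table held sorted endothelial cells (ECs) from female FVB mice, in 6 groups of 3 libraries: wild-type mammary fat pad (normal), breast tumours that arise in MMTV-PyMT transgenic mice (MMTV-PyMT), and breast tumours in the fat pad of wild-type mice (implanted), each taken 3 h after an injection of PBS or of the STING agonist cGAMP. In MMTV-PyMT mice the mouse mammary tumour virus promoter drives the polyoma middle T oncogene in mammary epithelium. For the implanted tumours, cells dissociated from MMTV-PyMT tumours were cultured briefly and placed with Matrigel into the fat pad of wild-type hosts, so the host ECs there carried no transgene. Hosts were 8 to 9 weeks old at implantation, treatment of MMTV-PyMT mice began at 9 weeks, and the age of the mice that gave normal fat pad was not given in the sources used here. Live cells were gated as CD45-/CD31+, and the 3 libraries of a group came from separate mice over independent experiments. Which experiment gave which library is not given in the labels. The values are FPKM, fragments per kilobase of exon scaled by a divisor for each library, which can be set beside each other between genes.

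A sprouting vessel is led by tip cells, which extend filopodia towards vascular endothelial growth factor (VEGF) and are followed by dividing stalk cells. Tip cells are known for the secreted proteoglycan Esm1 (endocan), the peptide apelin (Apln) and the chemokine receptor Cxcr4. Aplnr is the receptor that apelin binds. Tumour vessels also make placental growth factor (Pgf) and Plvap, the protein of the diaphragms that close fenestrae and caveolae. The angiopoietin-Tie system acts on the mature vessel: Tie2 (Tek) is a receptor tyrosine kinase that angiopoietin-1 activates to keep vessels quiet, Angpt2 is released by ECs and competes with it, and Tie1 is a related receptor without a known strong ligand that pairs with Tie2.

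Depth was similar across the series, at 9179771 to 12189431 recovered reads per library, and the members were well covered. Each member value rested on at least 104 reads (Pgf, MMTV-PyMT cGAMP library 3) and at most 16637 reads (Plvap, implanted cGAMP library 1). The interferon-induced genes Isg15 and Cxcl10 ranged from 4.18 to 66.5 and from 0.524 to 24.9 FPKM in the 9 PBS libraries and from 301 to 988 and 330 to 1747 FPKM in the 9 cGAMP libraries, so every library sat on the side of its label. The 8 endothelial markers were all present, with a summed level of 733 to 889 FPKM in MMTV-PyMT PBS, 779 to 1066 in MMTV-PyMT cGAMP, 960 to 1133 in normal and 1083 to 1795 in implanted ECs. Epithelial markers (7 of 7 in the table) summed to 893 to 966 FPKM in MMTV-PyMT PBS libraries and to 260 to 866 elsewhere. Mural markers (8 of 8) summed to 793 to 1080 FPKM in normal ECs and to 235 to 516 in tumour ECs, fibroblast markers (6 of 6) to 53.5 to 178 outside implanted tumours, and within them to 234 to 271 under PBS and to 492, 609 and 254 under cGAMP. Leukocyte markers (10 of 11) reached 288 FPKM in implanted cGAMP library 2 against 21.8 to 91.3 in the other 17 libraries, so results for implanted cGAMP are also given without that library where it changes a call. No value in the table was 0. In such bulk samples fewer cells of a type and less RNA per cell cannot be told apart, and the part of other cells in the results below was not tested.

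**Figure D1:**
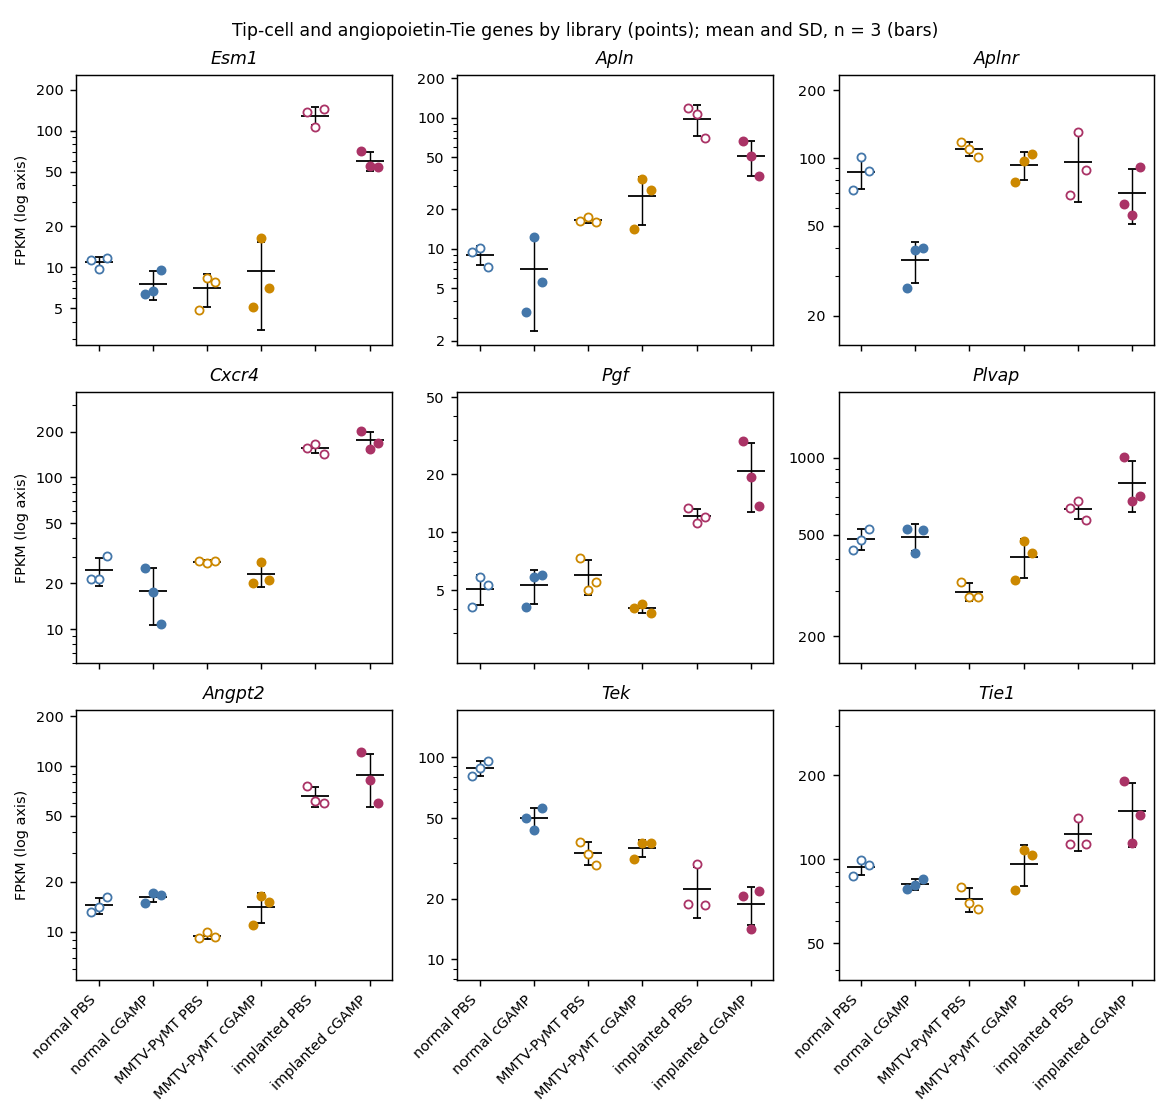
FPKM of the 9 genes (log axis) in each library of the 6 groups, with PBS libraries as open and cGAMP libraries as filled points, and the mean and SD of 3 libraries as bars. In FPKM, Esm1, Apln, Cxcr4, Pgf, Plvap, Angpt2 and Tie1 are higher in all 6 implanted libraries than in all 12 others, whereas Tek is highest in normal ECs under PBS (81.0 to 95.3 FPKM). Per recovered read, Plvap and Tie1 in implanted cGAMP library 2 lie within the range of the 12 others. The share of all genes with that separation was not counted. Under PBS, groups of 3 did not overlap, in either direction, in 61.5% of all genes for implanted against normal ECs. For implanted against MMTV-PyMT ECs that share was 58.4%.

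The comparison of tissues under PBS asks how the vessels of tumours differ before treatment. In implanted ECs, 6 of the 9 genes were higher than in normal ECs, led by Esm1, Apln, Cxcr4 and Angpt2, 1 was lower (Tek), and 2 (Aplnr and Tie1) did not pass the test, limma on log2(FPKM + 1) with Benjamini-Hochberg adjustment over all genes and a threshold of 0.05. Over all 13983 genes tested, 48.7% passed in that comparison in either direction, 25.0% higher and 23.6% lower. Against MMTV-PyMT ECs, 7 of 9 were higher in implanted ECs and Tek was lower, beside 45.5% of all genes (20.8% higher, 24.6% lower). MMTV-PyMT ECs differed from normal ECs in 4 of 9, all lower (Plvap, Angpt2, Tek and Tie1), beside 56.5% of all genes (29.8% higher, 26.6% lower). The shares over all genes were large, so the passing of a test by itself sets the members apart little, and the sizes carry the description: the median difference of the 9 members was 1.12 on the log2(FPKM + 1) scale for implanted against normal, 1.07 for implanted against MMTV-PyMT and -0.38 for MMTV-PyMT against normal, beside 0.010, -0.010 and 0.016 over all genes tested. At least a 2-fold difference past the threshold was seen in 6, 5 and 1 of 9 members, and in 11.5%, 7.33% and 13.9% of all genes. Groups of 3 did not overlap in 61.5%, 58.4% and 67.7% of all genes. Some differences are also given with each library divided by its summed endothelial markers, a scaling chosen after the data were seen. It moves the median over all genes to -0.11 for implanted against normal, -0.48 for implanted against MMTV-PyMT and 0.36 for MMTV-PyMT against normal ECs, and to 0.0043, -0.20 and -0.13 for cGAMP in normal, MMTV-PyMT and implanted ECs, against which those values are to be read. Under that scaling 5 of 9 members passed between MMTV-PyMT and normal ECs, with Apln, Aplnr, Cxcr4 and Pgf higher and Tek lower, so that Tek alone kept its call there and the balance of directions turned. Between implanted and MMTV-PyMT ECs, Esm1, Apln, Cxcr4 and Angpt2 kept their calls in all 9 settings other than leaving out a library. Their lowest differences over those settings were 3.47, 1.88, 1.84 and 2.09.

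Esm1 (chr13:113209659-113218098, plus strand, 3 exon blocks, mm10 with GENCODE M21) ranged 29.5-fold between the lowest and the highest library, next to Apln (35.7-fold) the widest range of the members. In normal ECs it stood at 11.3, 9.69 and 11.7 FPKM under PBS and at 6.37, 6.70 and 9.61 FPKM under cGAMP. In MMTV-PyMT ECs the values were 4.85, 8.40 and 7.81 FPKM under PBS and 5.10, 16.3 and 7.03 FPKM under cGAMP. Implanted ECs held 136, 107 and 143 FPKM under PBS and 71.5, 55.0 and 54.3 FPKM under cGAMP. The implanted groups thus stood apart from the 4 others and from each other, while the 4 groups below them overlapped with their neighbours in the order normal PBS, MMTV-PyMT cGAMP, normal cGAMP, MMTV-PyMT PBS. Under PBS, Esm1 was higher in implanted than in normal ECs by 3.44 ± 0.29 (SE) on the log2 scale (adjusted p = 9.42e-08) and higher than in MMTV-PyMT ECs by 4.04 ± 0.29 (adjusted p = 5.81e-08). Its difference between MMTV-PyMT and normal ECs was -0.59 ± 0.29 and did not pass (adjusted p = 0.0883), although the PBS libraries of these tissues did not overlap; it passed at the same value without MMTV-PyMT cGAMP library 2 (adjusted p = 0.0154).

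Apln (chrX:48025146-48034853, minus strand) followed the same order of tumours with a step between MMTV-PyMT and normal ECs. Its PBS values were 9.55, 10.2 and 7.33 FPKM in normal, 16.2, 17.6 and 16.05 FPKM in MMTV-PyMT and 119, 108 and 69.8 FPKM in implanted ECs. Its cGAMP values were 3.33, 12.4 and 5.55 FPKM in normal, 14.1, 34.0 and 28.1 FPKM in MMTV-PyMT and 66.8, 51.4 and 35.9 FPKM in implanted ECs. Every implanted library was above every MMTV-PyMT library and each of these above every normal library, while PBS and cGAMP overlapped within normal and within MMTV-PyMT ECs. Under PBS, implanted ECs exceeded normal ECs by 3.29 ± 0.36 (adjusted p = 1.76e-06) and MMTV-PyMT ECs by 2.46 ± 0.36 (adjusted p = 5.59e-05). MMTV-PyMT ECs were at 0.83 ± 0.36 above normal ECs, which did not pass (adjusted p = 0.0609). That difference passed at the same value without normal cGAMP library 1 (adjusted p = 0.0364) or 2 (0.0245) or MMTV-PyMT cGAMP library 1 (0.0394), and scaled to endothelial markers it was 1.25 (adjusted p = 0.00213).

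Cxcr4 (chr1:128588199-128592293, minus strand), the receptor for the chemokine CXCL12, was high in implanted ECs alone among the 3 tissues. Under PBS the libraries read 21.4, 21.5 and 30.1 FPKM in normal, 28.2, 27.4 and 28.1 FPKM in MMTV-PyMT and 157, 165 and 143 FPKM in implanted ECs. Under cGAMP they read 25.4, 17.6 and 10.8 FPKM in normal, 20.1, 27.6 and 21.1 FPKM in MMTV-PyMT and 203, 154 and 168 FPKM in implanted ECs. The 6 implanted libraries lay well above the 12 others, and all 4 normal and MMTV-PyMT groups overlapped with their neighbours in level. The difference under PBS was 2.64 ± 0.22 against normal ECs (adjusted p = 7.65e-08) and 2.43 ± 0.22 against MMTV-PyMT ECs (adjusted p = 5.62e-07). The 2 lower tissues differed by 0.21 ± 0.22 (MMTV-PyMT minus normal), with a 95% interval of -0.25 to 0.66, which did not pass (adjusted p = 0.433). Scaled to endothelial markers that difference was 0.64 and passed (adjusted p = 0.0226). Within a library, Cxcl12 stood at 6.49 ± 1.43 times the FPKM of Cxcr4 in normal PBS (SD, n = 3), at 1.40 ± 0.041 in MMTV-PyMT PBS and at 0.361 ± 0.074 in implanted PBS libraries. The ligand thus outweighed the receptor in normal and MMTV-PyMT ECs and was the lesser of the pair in implanted ECs, with no overlap between the tissues.

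Pgf (chr12:85166635-85177790, minus strand), a VEGF family ligand that binds the receptor Flt1, was the least abundant member by mean in every group but implanted cGAMP, where Tek was lower. Its PBS values were 4.11, 5.84 and 5.34 FPKM in normal, 7.37, 5.02 and 5.56 FPKM in MMTV-PyMT and 13.3, 11.2 and 12.1 FPKM in implanted ECs. Its cGAMP values were 4.12, 5.88 and 5.99 FPKM in normal, 4.07, 4.24 and 3.80 FPKM in MMTV-PyMT and 29.6, 19.4 and 13.6 FPKM in implanted ECs. Implanted ECs were again above all others, and every implanted cGAMP library was above every implanted PBS library. Under PBS, Pgf was higher in implanted ECs by 1.12 ± 0.21 against normal (adjusted p = 0.000322) and by 0.93 ± 0.21 against MMTV-PyMT ECs (adjusted p = 0.00188). With each library scaled to its summed endothelial markers, the latter was 0.39 and did not pass (adjusted p = 0.0731). MMTV-PyMT and normal ECs differed by 0.19 ± 0.21, which did not pass (adjusted p = 0.45), and by 0.58 with that scaling, which did (adjusted p = 0.0121).

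Upstream sequences are shown for the 2 tip-cell genes with the largest difference between implanted and normal ECs and for Tek, which differed the other way. RefSeq promoter windows were at hand for 6 of the 9 members (Esm1, Apln, Cxcr4, Pgf, Tek and Tie1). The 250 bases before the start of transcription are given 5′ to 3′ on the strand of the gene, on GRCm38.p6, with every CG in capitals: Esm1 from chr13:113209409-113209658 (plus), Apln from chrX:48034854-48035103 (minus) and Tek from chr4:94739039-94739288 (plus).
Esm1: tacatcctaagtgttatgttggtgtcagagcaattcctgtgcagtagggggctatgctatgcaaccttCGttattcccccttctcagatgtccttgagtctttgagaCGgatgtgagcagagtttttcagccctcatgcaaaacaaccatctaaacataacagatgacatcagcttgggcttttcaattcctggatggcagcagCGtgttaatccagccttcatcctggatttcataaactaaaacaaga
Apln: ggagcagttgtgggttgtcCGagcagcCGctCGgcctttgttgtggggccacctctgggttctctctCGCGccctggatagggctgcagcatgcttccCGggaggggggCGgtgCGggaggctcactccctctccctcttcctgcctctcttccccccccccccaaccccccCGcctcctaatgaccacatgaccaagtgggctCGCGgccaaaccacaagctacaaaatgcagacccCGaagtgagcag
Tek: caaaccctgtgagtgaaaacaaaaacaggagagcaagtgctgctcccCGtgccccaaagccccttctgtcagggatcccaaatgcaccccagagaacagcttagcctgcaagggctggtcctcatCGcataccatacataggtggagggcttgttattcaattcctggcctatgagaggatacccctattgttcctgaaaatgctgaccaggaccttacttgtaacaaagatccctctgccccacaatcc
The Apln window was rich in G and C (65.2%, with 12 CG), whereas those of Esm1 (44%, 3 CG) and Tek (51.2%, 2 CG) were not, beside a median of 52.4% and 6 CG over 32817 promoters. A search on both strands for ACGTG (one form of the core of the hypoxia response element, the form GCGTG not being searched), GTAAACA (forkhead), the interferon-stimulated response element (GAAA, 2 free bases, GAAA) and the NF-kB site (GGG, 2 free bases, TTTCC) found none of them in any of the 7 windows of the 6 members, Pgf having 2 starts. Over all promoters these letters occur in 16.6%, 3.16%, 2.97% and 1.41% of windows, and their absence says only that they are not in these 250 bases. The unsearched form GCGTG can be read in the Esm1 window above, in that of Cxcr4 and, on the opposite strand, in a Pgf window. Its share over all promoters was not counted.

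Aplnr (chr2:85136225-85139923, plus strand, 1 exon block), the receptor that apelin binds, showed no difference between tissues past the threshold. The values under PBS were 72.4, 101 and 88.1 FPKM in normal, 118, 110.2 and 102 FPKM in MMTV-PyMT and 68.6, 130.4 and 88.2 FPKM in implanted ECs. The cGAMP libraries stood at 26.7, 39.2 and 39.7 FPKM in normal, 78.3, 96.7 and 104 FPKM in MMTV-PyMT and 62.4, 55.7 and 91.8 FPKM in implanted ECs. The normal cGAMP libraries were the lowest of all and overlapped with no other group, while the 5 other groups each overlapped with the next in level. The difference between implanted and normal ECs was 0.10 ± 0.22 (95% interval -0.38 to 0.57, adjusted p = 0.75), and between implanted and MMTV-PyMT ECs -0.25 ± 0.22 (interval -0.72 to 0.23, adjusted p = 0.387). Within PBS libraries the ratio of Apln to Aplnr was 0.105 ± 0.025 for normal, 0.152 ± 0.013 for MMTV-PyMT and 1.12 ± 0.53 for implanted ECs (SD, n = 3). Scaled to endothelial markers, Aplnr was higher in MMTV-PyMT than in normal ECs by 0.78 (adjusted p = 0.00424) and lower in implanted than in MMTV-PyMT ECs by -0.85 (adjusted p = 0.00239), so its place among the tissues depends on that scaling.

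Plvap (chr8:71497765-71511752, minus strand) was the most abundant member in every group. Its PBS values were 436, 477 and 526 FPKM in normal, 327, 286 and 284 FPKM in MMTV-PyMT and 634, 679.9 and 572 FPKM in implanted ECs. Its cGAMP values were 528, 424 and 519.6 FPKM in normal, 331, 472 and 423 FPKM in MMTV-PyMT and 1001, 676 and 708 FPKM in implanted ECs. In FPKM, implanted libraries were above all others and MMTV-PyMT PBS libraries below all others. Per recovered read the implanted libraries did not stand apart. Implanted cGAMP library 2 held 11301 Plvap reads of 10366483 recovered, and normal cGAMP library 3 held 11222 of 9460532. Plvap was lower in MMTV-PyMT than in normal ECs by -0.68 ± 0.16 (adjusted p = 0.00167) and higher in implanted than in MMTV-PyMT ECs by 1.07 ± 0.16 (adjusted p = 5.89e-05). Its difference of 0.39 ± 0.16 between implanted and normal ECs passed narrowly (adjusted p = 0.049). The call was lost in 11 of 18 fits that each left out 1 library, among them normal PBS library 1 (0.32, adjusted p = 0.156) and 2 (0.39, adjusted p = 0.0974) and implanted PBS library 1 (0.38, adjusted p = 0.102) and 2 (0.33, adjusted p = 0.147), and the other 7 were libraries outside the pair, which left the value at 0.39 with an adjusted p of up to 0.0592. With quantile normalisation the difference was -0.05 (adjusted p = 0.796), and scaled to endothelial markers that against normal ECs was 0.23 (adjusted p = 0.188) and that between MMTV-PyMT and normal ECs -0.23 (adjusted p = 0.124), while implanted against MMTV-PyMT kept its call at 0.46 (adjusted p = 0.00521).

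**Figure D2:**
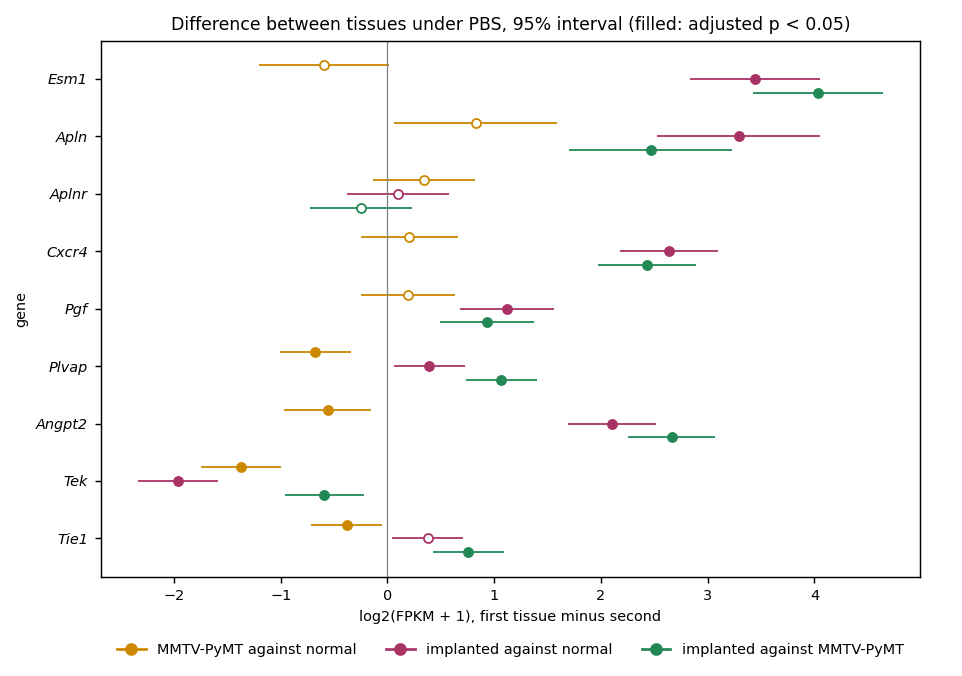
Difference between tissues under PBS for the 9 genes on the log2(FPKM + 1) scale, with the 95% interval, n = 3 libraries per group, and filled points for an adjusted p under 0.05. The implanted tissue differs most in Esm1 (3.44 and 4.04) and in the opposite direction in Tek (-1.96 against normal), and the intervals of Aplnr all include 0.

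In the angiopoietin-Tie system the ligand and the receptor moved in opposite directions in implanted tumours. Angpt2 (chr8:18690263-18741562, minus strand) had PBS values of 13.1, 14.1 and 16.3 FPKM in normal, 9.19, 10.002 and 9.26 FPKM in MMTV-PyMT and 76.0, 61.4 and 59.8 FPKM in implanted ECs. With cGAMP the values were 14.975, 17.2 and 16.6 FPKM in normal, 11.001, 16.5 and 15.1 FPKM in MMTV-PyMT and 121, 82.4 and 59.5 FPKM in implanted ECs. Implanted libraries stood above all others, and the MMTV-PyMT PBS libraries below all others. Angpt2 was higher in implanted than in normal ECs by 2.10 ± 0.19 (adjusted p = 2.65e-07) and than in MMTV-PyMT ECs by 2.66 ± 0.19 (adjusted p = 7.52e-08). It was lower in MMTV-PyMT than in normal ECs by -0.56 ± 0.19 (adjusted p = 0.021). That last call was lost without normal PBS library 3 (-0.48, adjusted p = 0.0798), MMTV-PyMT PBS library 1 (-0.54, adjusted p = 0.0526) or MMTV-PyMT PBS library 3 (-0.54, adjusted p = 0.0542), and scaled to endothelial markers it was -0.15 (adjusted p = 0.446).

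Tek (chr4:94739289-94874976, plus strand, 23 exon blocks), the Tie2 receptor, was the only member that was highest in normal ECs. PBS libraries stood at 81.0, 88.5 and 95.3 FPKM in normal, 38.0, 33.3 and 29.3 FPKM in MMTV-PyMT and 18.8, 29.7 and 18.5 FPKM in implanted ECs. Its cGAMP values were 50.0, 43.6 and 56.0 FPKM in normal, 31.4, 37.7 and 37.6 FPKM in MMTV-PyMT and 20.7, 14.2 and 21.7 FPKM in implanted ECs. Normal PBS, normal cGAMP and the tumour groups did not overlap, and each of the tumour groups overlapped with the next. Tek was lower than in normal ECs by -1.37 ± 0.18 in MMTV-PyMT (adjusted p = 8.31e-06) and by -1.96 ± 0.18 in implanted ECs (adjusted p = 2.11e-07). Between the tumours it was lower in implanted ECs by -0.59 ± 0.18 (adjusted p = 0.0123), a call lost without MMTV-PyMT PBS library 1 (-0.50, adjusted p = 0.0541), implanted PBS library 1 (-0.49, adjusted p = 0.0561) or implanted PBS library 3 (-0.48, adjusted p = 0.0617). All 3 differences kept their direction and call when libraries were scaled to endothelial markers (-0.94, -2.12 and -1.18). Mural markers were also lower in both tumours, as given above.

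Tie1 (chr4:118471191-118490061, minus strand, 22 exon blocks) varied least, 2.87-fold from the lowest to the highest library. Its PBS values were 86.8, 99.1 and 95.5 FPKM in normal, 79.7, 69.5 and 66.3 FPKM in MMTV-PyMT and 114, 140.5 and 114 FPKM in implanted ECs. Under cGAMP they read 78.0, 80.6 and 85.1 FPKM in normal, 77.5, 108 and 103 FPKM in MMTV-PyMT and 190.2, 114 and 144 FPKM in implanted ECs. In FPKM the implanted libraries were again the highest. Per recovered read they were not, with 4712 Tie1 reads of 10366483 in implanted cGAMP library 2 and 5777 of 10498864 in normal PBS library 2. Under PBS, Tie1 was higher in implanted than in MMTV-PyMT ECs by 0.76 ± 0.16 (adjusted p = 0.00109), and the value scaled to endothelial markers was 0.16 (adjusted p = 0.185). The difference of 0.38 ± 0.16 between implanted and normal ECs did not pass (adjusted p = 0.0581) but passed at the same value without implanted cGAMP library 1 (adjusted p = 0.0219), implanted cGAMP library 2 (0.0272) or MMTV-PyMT cGAMP library 1 (0.0408). Tie1 was lower in MMTV-PyMT than in normal ECs by -0.38 ± 0.16 at an adjusted p of 0.0491, a call lost in 12 of 18 fits without 1 library. Of the libraries compared these were normal PBS 1, 2 and 3 (-0.44, -0.34 and -0.37) and MMTV-PyMT PBS 2 and 3 (-0.36 and -0.33), and scaled to endothelial markers the difference was 0.06 (adjusted p = 0.636).

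Set against Tek in the same library, both Angpt2 and Tie1 separated the tissues. Angpt2 per Tek was 0.164 ± 0.0060 in normal PBS (SD, n = 3), 0.286 ± 0.039 in MMTV-PyMT PBS and 3.11 ± 0.99 in implanted PBS libraries. Under cGAMP it was 0.330 ± 0.055, 0.397 ± 0.044 and 4.80 ± 1.79. The transcript of the ligand was thus below that of its receptor in all 12 normal and MMTV-PyMT libraries and above it in all 6 implanted libraries, where the lowest ratio was 2.06. Tie1 per Tek was 1.06 ± 0.059 under PBS for normal, 2.15 ± 0.10 for MMTV-PyMT and 5.63 ± 0.79 for implanted libraries, and 1.64 ± 0.18, 2.69 ± 0.20 and 7.95 ± 1.29 under cGAMP. Against Angpt1, the activating ligand, Angpt2 was 2.37 ± 0.30 times as high under PBS for normal, 2.98 ± 0.057 times for MMTV-PyMT and 41.3 ± 12.7 times for implanted libraries. Mural markers summed to 959 to 1080 FPKM in normal PBS, 236 to 325 in MMTV-PyMT PBS and 267 to 304 in implanted PBS libraries. The part of mural cells in the Angpt1 values was not tested. A ratio within a library shows unequal change and not which of the pair changed.

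**Figure D3:**
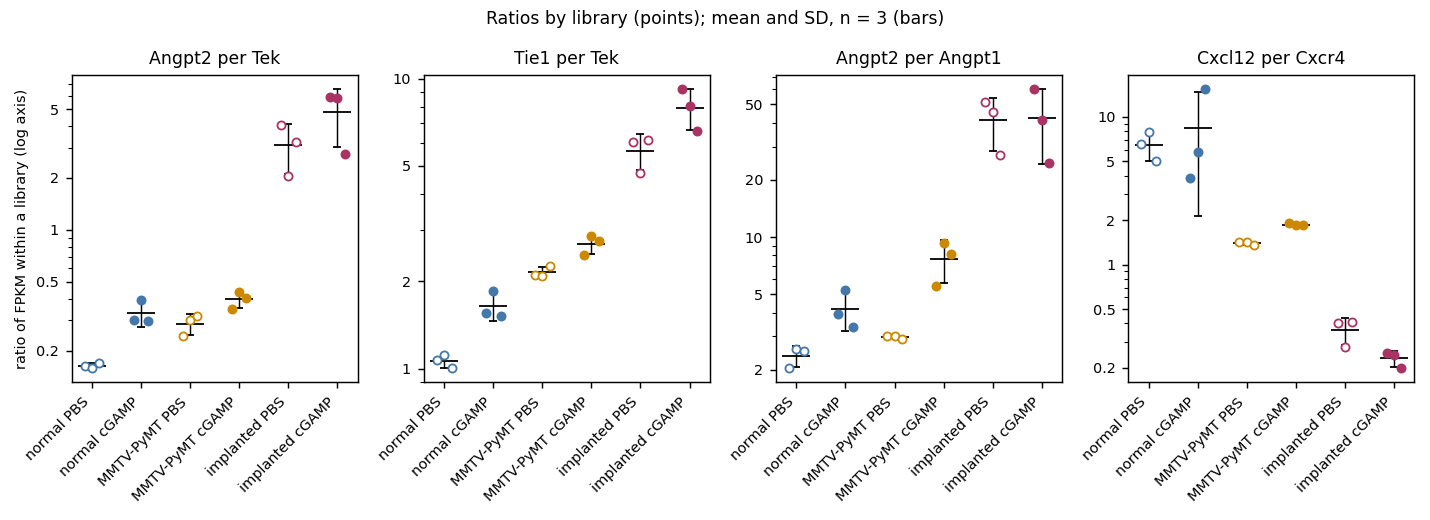
Ratios of FPKM within each library (log axis) by group, with PBS as open and cGAMP as filled points and the mean and SD of 3 libraries as bars. Angpt2 per Tek lies between 0.159 and 0.438 in normal and MMTV-PyMT libraries and between 2.06 and 5.86 in implanted libraries, and Cxcl12 per Cxcr4 goes the other way.

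The comparison of cGAMP with PBS asks how the vessels of each tissue had responded after 3 h. Few members passed: Aplnr and Tek fell in normal ECs, Esm1 and Apln fell and Pgf rose in implanted ECs, and none passed in MMTV-PyMT ECs. That is 2 of 9 in normal, 3 of 9 in implanted and 0 of 9 in MMTV-PyMT ECs, beside 31.9%, 39.1% and 12.0% of all genes tested, shares that the members did not exceed. Of all genes, 13.7% rose and 18.2% fell in normal, 20.3% rose and 18.8% fell in implanted, and 7.42% rose and 4.57% fell in MMTV-PyMT ECs. In MMTV-PyMT ECs, where limma called 0 members, 4 had an unadjusted p under 0.05 (Pgf, Plvap, Angpt2 and Tie1), and limma-voom on recovered reads also called 0. Over the 9 members the median effect was -0.46 for normal, 0.27 for MMTV-PyMT and 0.17 for implanted ECs, beside -0.045, -0.037 and -0.014 over all genes.

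In normal ECs, Aplnr fell by 1.29 ± 0.22 on the log2 scale (adjusted p = 0.000459), from a mean of 87.2 to 35.2 FPKM, and Tek fell by 0.81 ± 0.18 (adjusted p = 0.00246), from 88.3 to 49.9 FPKM. All 3 cGAMP libraries were below all 3 PBS libraries for both receptors, and groups did not overlap in 48.9% of all genes. Both calls held in all 18 fits without 1 library and under every other setting tried. The 7 other members had effects between -0.49 (Esm1, adjusted p = 0.208) and 0.16 (Angpt2, adjusted p = 0.567). Cxcr4 stood at -0.48 ± 0.22 (adjusted p = 0.101), and without normal cGAMP library 1, the one whose 25.4 FPKM overlapped with PBS, it was -0.76 and passed (adjusted p = 0.008). Leukocytes also express Cxcr4, and leukocyte markers summed to 91.3 FPKM in that library against 27.1 and 29.1 in the other normal cGAMP libraries and 33.3 to 78.6 under PBS. Their part in the Cxcr4 value was not tested.

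In implanted ECs, Esm1 fell by 1.08 ± 0.29 (adjusted p = 0.00691), from a mean of 129 to 60.3 FPKM, with no overlap of the groups (as in 45.3% of all genes) and a call that held in all 18 fits without 1 library. Apln fell by 0.94 ± 0.36 (adjusted p = 0.0489), from 98.7 to 51.4 FPKM. This call was lost in 12 of 18 fits without 1 library, including implanted PBS 1 (-0.79, adjusted p = 0.155), implanted PBS 2 (-0.86, adjusted p = 0.122), implanted cGAMP 2 (-0.96, adjusted p = 0.0774) and implanted cGAMP 3 (-0.71, adjusted p = 0.172). The other 8 were libraries of other groups, which left the value at -0.94. Pgf rose by 0.66 ± 0.21 (adjusted p = 0.0187), from 12.2 to 20.9 FPKM, and the call was lost without implanted cGAMP library 1 (0.39, adjusted p = 0.111) or implanted PBS library 2 (0.61, adjusted p = 0.0602). It was also lost with quantile normalisation (0.45, adjusted p = 0.0605), with scaling by total reads (0.36, adjusted p = 0.118) and scaled to endothelial markers (0.50, adjusted p = 0.0563), while the falls of Esm1 and Apln were -1.25 (adjusted p = 0.00255) and -1.10 (adjusted p = 0.0131) under the latter. Of the 9 settings other than leaving out a library, the call was lost in 0 for Esm1, 2 for Apln and 4 for Pgf. With cGAMP in implanted ECs 5 of 6 fibroblast markers also rose (median 0.76), as did 2 of 10 leukocyte and 2 of 3 platelet markers, beside 20.3% of all genes. The part of these cells in the effects on the members was not tested. Implanted cGAMP library 1 held the highest Pgf, Plvap, Angpt2, Tie1 and Cxcr4 of all 18 libraries and also the highest summed endothelial markers (1795 FPKM). Angpt2 and Tie1 did not pass over all libraries (0.36, adjusted p = 0.152, and 0.26, adjusted p = 0.21), but Angpt2 passed without implanted cGAMP library 3 (0.61, adjusted p = 0.0112) and Tie1 without implanted cGAMP library 2 (0.44, adjusted p = 0.0297), the library with the high leukocyte markers. Aplnr was at -0.43 ± 0.22 (adjusted p = 0.142) and passed at -0.64 without implanted PBS library 1 (adjusted p = 0.0422) or implanted cGAMP library 3 (adjusted p = 0.0386).

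**Figure D4:**
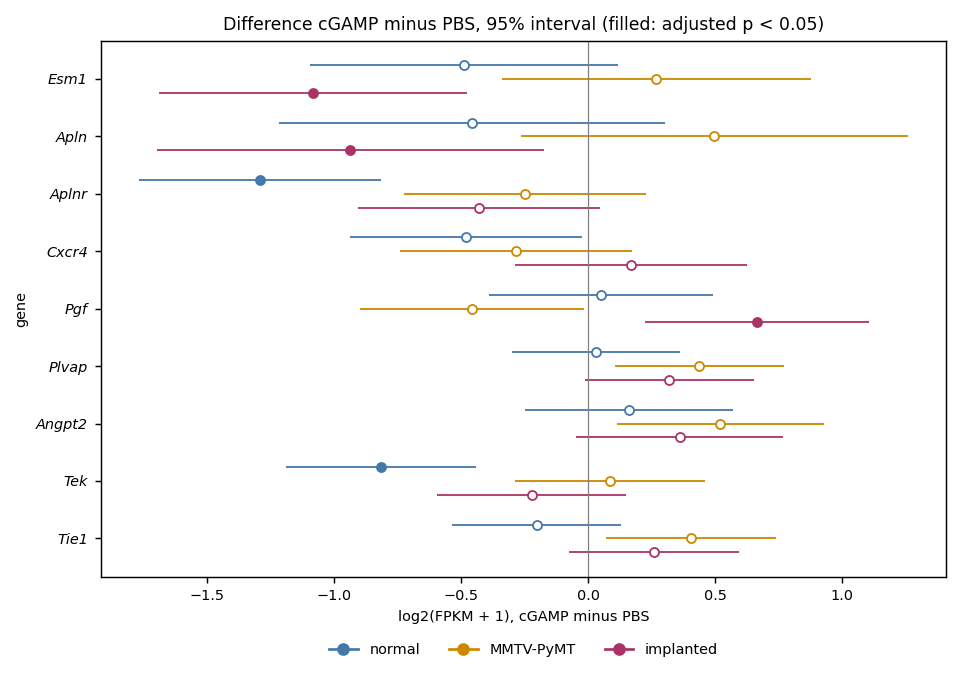
Difference between cGAMP and PBS for the 9 genes in each tissue on the log2(FPKM + 1) scale, with the 95% interval, n = 3 libraries per group, and filled points for an adjusted p under 0.05. Aplnr (-1.29) and Tek (-0.81) fell in normal ECs, Esm1 (-1.08) and Apln (-0.94) fell and Pgf (0.66) rose in implanted ECs.

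In MMTV-PyMT ECs, Angpt2 stood at 0.52 ± 0.19 (adjusted p = 0.0924), Plvap at 0.44 ± 0.16 (adjusted p = 0.0828), Tie1 at 0.41 ± 0.16 (adjusted p = 0.109) and Pgf at -0.46 ± 0.21 (adjusted p = 0.171). Plvap, Angpt2 and Pgf did not overlap between PBS and cGAMP, which held for 33.4% of all genes tested in that tissue. The 3 higher values turned on MMTV-PyMT cGAMP library 1, which resembled the PBS libraries: without it Angpt2 was at 0.68 (adjusted p = 0.0359), Plvap at 0.58 (adjusted p = 0.0267) and Tie1 at 0.55 (adjusted p = 0.0335). Without implanted cGAMP library 1, which enters only the estimate of the spread, the same 3 passed at unchanged values, and Angpt2 also did so without implanted cGAMP library 3 (adjusted p = 0.0371). Summed endothelial markers were 1066 and 936 FPKM in MMTV-PyMT cGAMP libraries 2 and 3 and 779 in library 1, and scaled to them the effects were 0.34, 0.23 and 0.21, none of which passed, while Pgf then fell by 0.64 (adjusted p = 0.0396).

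Whether the response differed between tissues was tested as the difference of the effects. Of the 27 such differences, 3 passed. The effect on Tek was higher in MMTV-PyMT than in normal ECs by 0.90 ± 0.25 (adjusted p = 0.0363), since Tek fell in normal ECs (-0.81) and stood at 0.09 in MMTV-PyMT ECs. The effect on Esm1 was lower in implanted than in MMTV-PyMT ECs by -1.35 ± 0.40 (adjusted p = 0.0411), and that on Pgf was higher by 1.12 ± 0.29 (adjusted p = 0.0205). That is 1 of 9 members for MMTV-PyMT against normal, 0 of 9 for implanted against normal and 2 of 9 for implanted against MMTV-PyMT, beside 8.37%, 18.6% and 11.1% of all genes. For implanted against normal, where limma called 0, 3 members had an unadjusted p under 0.05 (Aplnr, Cxcr4 and Tek) and limma-voom called 0. Without implanted cGAMP library 2, the one with the high leukocyte markers, 3 passed there: Aplnr (1.01, adjusted p = 0.0413), Tek (0.77, adjusted p = 0.0279) and Tie1 (0.64, adjusted p = 0.0344). Without implanted PBS library 2, Aplnr (1.11, adjusted p = 0.0172) and Tek (0.81, adjusted p = 0.0193) passed, without normal cGAMP library 1 Cxcr4 did (0.93, adjusted p = 0.019), and without implanted cGAMP library 3 Pgf did (0.87, adjusted p = 0.0243). The effect on Aplnr came close to the threshold, at 1.04 ± 0.32 for MMTV-PyMT minus normal ECs (adjusted p = 0.053) and 0.86 ± 0.32 for implanted minus normal ECs (adjusted p = 0.0698). The first of these passed in 5 of 18 fits without 1 library (implanted PBS 1 and 2, implanted cGAMP 2 and 3 and MMTV-PyMT cGAMP 1, with values of 1.04 to 1.16) and in 5 of 9 other settings, and scaled to endothelial markers it was 0.78 (adjusted p = 0.182).

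All 3 calls were close to the threshold. That on Tek was lost in 8 of 18 fits without 1 library, all of the groups compared: normal PBS 2 and 3 (0.90 and 0.84), normal cGAMP 1 and 2 (0.91 and 0.81), MMTV-PyMT PBS 2 and 3 (0.90 and 0.81) and MMTV-PyMT cGAMP 2 and 3 (0.86 each), with adjusted p-values from 0.056 to 0.0926. That on Esm1 was lost in 10 of 18: without MMTV-PyMT cGAMP library 2, whose 16.3 FPKM was the highest of its group, it was -0.92 (adjusted p = 0.0593), and without MMTV-PyMT PBS 1 and 3, implanted PBS 1 and 3 and implanted cGAMP 2 and 3 it was -1.14, -1.43, -1.30, -1.27, -1.29 and -1.28. The 3 normal PBS libraries left it at -1.35 with an adjusted p of up to 0.0537. That on Pgf was lost without implanted PBS library 2 (1.07, adjusted p = 0.0516) or MMTV-PyMT PBS library 1 (0.99, adjusted p = 0.0555). Scaled to endothelial markers, Tek was at 0.64 (adjusted p = 0.112), Esm1 at -1.33 (adjusted p = 0.0672) and Pgf at 1.14 (adjusted p = 0.018).

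Other genes of the same pathways were read from lists chosen with earlier results of these data known. The lists were read without scaling to endothelial markers, which moved the median over all genes to -0.48 for implanted against MMTV-PyMT ECs. Of 23 further tip-cell genes, 21 were higher and 0 lower in implanted than in normal ECs under PBS, with a median of 1.76, and 22 higher and 0 lower than in MMTV-PyMT ECs, with a median of 1.27. Over all genes 25.0% and 20.8% were higher in these comparisons, and 23.6% and 24.6% lower. Against normal ECs the largest differences were those of Igfbp3, a binding protein of insulin-like growth factors (4.89 ± 0.22, from 36.9 to 1138 FPKM), the basement membrane protein Nid2 (3.62 ± 0.28), the potassium channel subunit Kcne3 (2.79 ± 0.28) and Trp53i11 (2.76 ± 0.18). The 2 genes that did not pass were Rgcc and Nrp1. MMTV-PyMT ECs exceeded normal ECs in 13 of 23 and were lower in 2 (Pdgfb and Nrp1), with a median of 0.64, led by Nid2 (2.06 ± 0.28) and Igfbp3 (2.04 ± 0.22). There 29.8% of all genes were higher and 26.6% lower. By its median the list thus stood between normal and implanted levels in MMTV-PyMT ECs. Of the members higher in implanted than in MMTV-PyMT ECs, Esm1, Plvap, Angpt2 and Tie1 were below normal in MMTV-PyMT ECs. Apln, Cxcr4 and Pgf were above normal there. Of these, Esm1, Apln, Cxcr4 and Pgf did not pass. Scaled to endothelial markers, Plvap, Angpt2 and Tie1 lost their calls, and Apln, Cxcr4 and Pgf gained one. Of the 23 further genes, 3 rose and 4 fell with cGAMP in normal, 5 rose and 0 fell in MMTV-PyMT and 4 rose and 6 fell in implanted ECs. In either direction 31.9%, 12.0% and 39.1% of all genes passed in these tissues. Plaur, the urokinase receptor, rose in all 3 (1.83 ± 0.21, 1.53 ± 0.21 and 1.57 ± 0.21), and Kcne3 fell by 1.44 ± 0.28 in normal ECs.

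**Figure D5:**
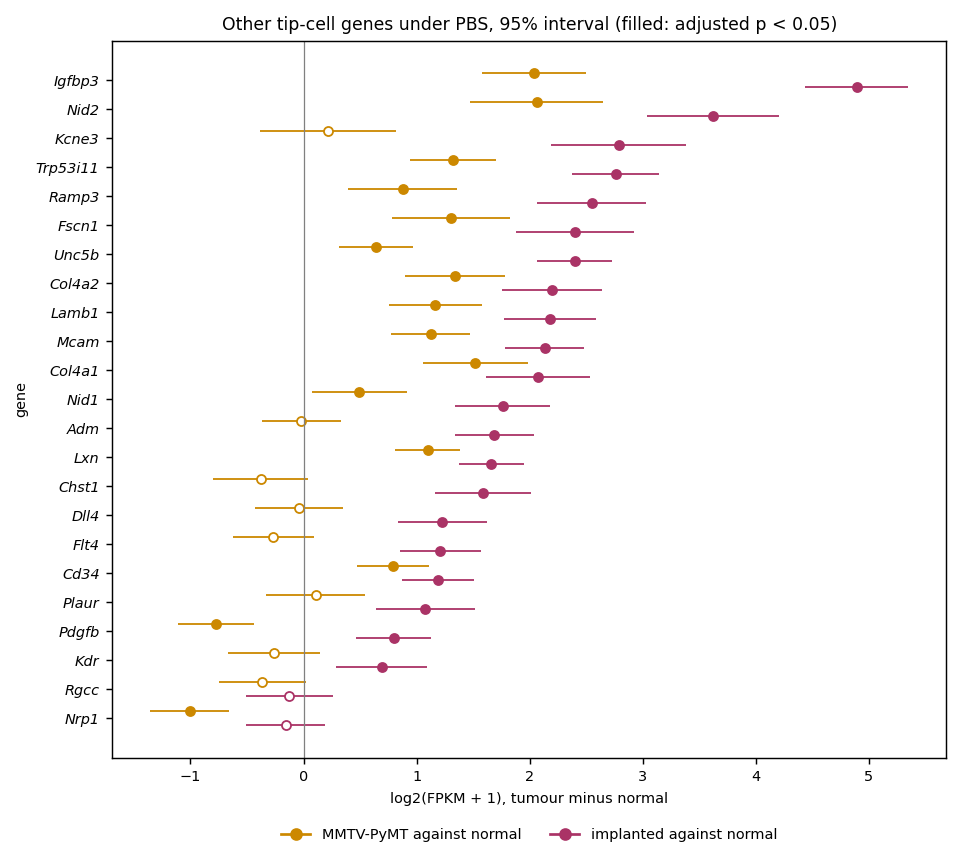
Difference to normal ECs under PBS of 23 further tip-cell genes on the log2(FPKM + 1) scale, with the 95% interval, n = 3 libraries per group, and filled points for an adjusted p under 0.05. In implanted ECs 21 genes are higher, and in MMTV-PyMT ECs 13 are higher and 2 lower. Over all genes 25.0% are higher in implanted ECs, and 29.8% are higher and 26.6% lower in MMTV-PyMT ECs.

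Among 16 tested partners and regulators of the angiopoietin-Tie system (18 listed), 8 were higher and 8 lower in implanted than in normal ECs under PBS (median 0.07). Over all genes 25.0% were higher and 23.6% lower. Lower were Vwf, which shares storage granules with Angpt2 (-1.90 ± 0.22), the flow-responsive factor Klf2 (-1.82 ± 0.24) and Angpt1 (-1.42 ± 0.13, from 6.14 to 1.68 FPKM), and higher was the membrane protease Mmp14 (1.44 ± 0.15). In MMTV-PyMT against normal ECs 3 were higher and 6 lower, among them Klf2 (-2.52 ± 0.24), Vwf (-2.24 ± 0.22) and Ptprb, the phosphatase that restrains Tie2 (-1.48 ± 0.19). Over all genes 29.8% were higher and 26.6% lower there. With cGAMP, 7 rose and 0 fell in implanted ECs, led by the ETS factor Elf1 (1.20 ± 0.10), 2 rose and 4 fell in normal ECs and 3 rose and 2 fell in MMTV-PyMT ECs, where Angpt1 fell by 0.54 ± 0.13. Of all genes 39.1%, 31.9% and 12.0% passed in these tissues in either direction. Klf2 fell in normal ECs (-0.71 ± 0.24) and rose in MMTV-PyMT (0.94 ± 0.24) and implanted ECs (0.65 ± 0.24).

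Partners of apelin, CXCR4 and PlGF (10 of 12 tested) were lower in MMTV-PyMT than in normal ECs in 6 cases and higher in 0, led by Vegfc (-2.22 ± 0.22) and the CXCR4 ligand Cxcl12 (-1.95 ± 0.19). Beside that, 26.6% of all genes were lower and 29.8% higher. Cxcl12 was also lower in implanted ECs (-1.46 ± 0.19), opposite to its receptor, whereas Vegfa was higher (1.39 ± 0.19). The protease Adamts1 was the one gene of this list that rose with cGAMP in all 3 tissues (0.98 ± 0.22, 0.98 ± 0.22 and 0.77 ± 0.22), and Vegfc fell by 1.19 ± 0.22 in normal ECs. Of 10 caveolar and membrane partners of Plvap, 9 were lower and 0 higher in MMTV-PyMT than in normal ECs (median -1.36) and 7 lower and 2 higher in implanted ECs (median -0.68), led in both by the caveolar coat protein Cavin2 (-2.59 ± 0.16 and -2.45 ± 0.16). In these comparisons 26.6% and 23.6% of all genes were lower, and 29.8% and 25.0% higher. Cav1, the main caveolin, was lower by -1.62 ± 0.14 and -1.22 ± 0.14. Plvap itself stood at 0.39 above normal ECs in implanted tumours, the call described above as lost in 11 of 18 fits, while Cav1, Cavin1 and Cavin2 were lower. Cavin2 fell with cGAMP in normal (-1.07 ± 0.16) and in implanted ECs (-1.31 ± 0.16).

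Of 11 tested hypoxia response genes (12 listed, of which Adm also stands in the tip-cell list and Vegfa among the partners), 10 were higher and 0 lower in implanted than in normal ECs under PBS (median 1.39), led by the oxygen sensor Egln3 (3.36 ± 0.16, from 3.90 to 49.4 FPKM) and the glycolytic enzyme Pgk1 (2.24 ± 0.10). Against MMTV-PyMT ECs 9 were higher and 0 lower (median 1.37), led by P4ha1 (2.22 ± 0.18). MMTV-PyMT ECs exceeded normal ECs in 5 and were lower in 3 (median 0.07). Over all genes, 25.0%, 20.8% and 29.8% were higher in these comparisons, in that order, and 23.6%, 24.6% and 26.6% were lower. With cGAMP, 2 rose and 2 fell in normal, 0 rose and 1 fell in MMTV-PyMT and 3 rose and 2 fell in implanted ECs, where Adm, a vasodilator peptide, rose by 1.03 ± 0.16 as Apln and Esm1 fell. Beside these counts, 31.9%, 12.0% and 39.1% of all genes passed in either direction.

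The genes most like each member over the 18 libraries, by Pearson's r of log2(FPKM + 1) among 6909 genes with a mean of at least 5 FPKM, are given as a description, since all points share tissue and depth. They were Sipa1 (0.961), Arhgdia and Klk10 for Esm1, Gdpd5 (0.969), Kctd17 and Unc5b for Apln, Sae1 (0.905), Bpnt1 and Hspa13 for Aplnr, and Prss23 (0.973), Sh3bgrl3 and Sipa1 for Cxcr4. For Pgf they were Kctd11 (0.937), Ubb and Cttnbp2nl, for Plvap Fxyd5 (0.974), Flt1 and Plcb1, for Angpt2 Degs1 (0.984), H2-K1 and Slc16a3, for Tek Pgm5 (0.963), Appl1 and Ace, and for Tie1 Eng (0.981), Tcf4 and Emcn. Esm1 and Cxcr4 shared Sipa1, and Apln was close to the tip-cell receptor Unc5b. Among the members the highest r was that of Esm1 with Angpt2 (0.929), and the lowest that of Apln with Tek (-0.777). With the group means removed these were 0.535 and 0.0052, and the highest was then that of Plvap with Tie1 (0.852).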

How the data were processed

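RNA of sorted CD45-/CD31+ ECs was sequenced as directional paired-end libraries. The authors aligned reads to mm10 with STAR 2.7, counted them with HTSeq and deposited 1 table of FPKM for 18 libraries. The strand setting of the counting is not given in the sources used here. No 2 replicates agreed within sampling noise. Whole reads could be recovered from the steps of the FPKM values (to within 0.02 of a read) for 99.99% of genes, with GENCODE M21 exon lengths fitting 15787 of 16248. The FPKM values were tested with limma 3.58.1 (R 4.3.3): 1 mean per group over all 18 libraries on log2(FPKM + 1), with a trended prior, and Benjamini-Hochberg adjustment over the 13983 genes at 1 FPKM or more in at least 3 libraries. Differences of low genes are understated on that scale. Of the 18 columns, the 6 of normal ECs name a treatment and number but no tissue and were matched by elimination among the labels, so every comparison with normal ECs rests on that match. The members and lists were chosen with earlier results of these data known. In the text stand all 9 members, up to 4 genes of each list with the largest change past the threshold per comparison, the 3 genes most like each member and, as a check of treatment, Isg15 and Cxcl10. Lymphatic (4 of 6 markers in the table, 21.7 to 113 FPKM summed), venous (6 of 6, 142 to 503), platelet (3 of 5, 1.87 to 12.2), cycling (6 of 6, 8.12 to 56.7) and adipocyte lists (0 of 4) were also read. The code of the fit was also run on simulated reads with the same dispersion for all genes and changes only in normal cGAMP. These differ from the data here, so that run does not bear on the calls above. Alternatives were another pseudocount, other filters, 3 other scalings, limma-voom on the recovered reads, separate fits, a replicate block and leaving out each library.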

Additional observations from a re-analysis of the deposited data

Results flagged for a closer look

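The effect of cGAMP differed between tissues for 3 of the 9 genes by the test of the difference itself, each close to the threshold. The call on Tek was lost in 8 and that on Esm1 in 10 of 18 fits without 1 library, both with the replicate block (adjusted p = 0.0577 and 0.0541) and with scaling to endothelial markers (0.112 and 0.0672), and that on Pgf in 2 of 18. The Esm1 call was also lost with a pseudocount of 0.1 and with separate fits. Of the 9 settings other than leaving out a library, the call was lost in 2 for Tek, 4 for Esm1 and 0 for Pgf. For Tek it was 0.9001 higher in MMTV-PyMT than in normal ECs on the log2(FPKM + 1) scale (SE 0.25, adjusted p = 0.0363 by limma): Tek was lower in all 3 cGAMP libraries than in all 3 PBS libraries in normal ECs, and overlapped between treatments in MMTV-PyMT ECs. For Esm1 it was -1.351 in implanted relative to MMTV-PyMT ECs (SE 0.40, adjusted p = 0.0411), with lower values in 3 of 3 cGAMP libraries in implanted ECs and overlap in MMTV-PyMT ECs. For Pgf it was 1.123 (SE 0.29, adjusted p = 0.0205), with all cGAMP libraries above PBS in implanted ECs and all below PBS in MMTV-PyMT ECs.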

How the results depend on the processing

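Over the 81 member and comparison pairs and 9 settings other than leaving out a library, 651 values kept direction and call, 23 lost the call, 32 gained it and 23 changed sign. The number of members past the threshold moved by more than 1.5 times as follows. For cGAMP in MMTV-PyMT ECs it was 1 with quantile normalisation, total-read scaling, endothelial-marker scaling and separate fits, against 0. For MMTV-PyMT against normal ECs it was 7 with separate fits, against 4. For the cGAMP effect in MMTV-PyMT minus normal ECs it was 2 with a mean of at least 5 FPKM, quantile normalisation and limma-voom, 3 with separate fits and 0 with endothelial-marker scaling, against 1. For implanted minus MMTV-PyMT it was 1 with a pseudocount of 0.1, separate fits, the replicate block and endothelial-marker scaling, against 2, and for implanted minus normal it was 1 with the replicate block, against 0. Why the counts moved was not tested.

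Without 1 library the number of members past the threshold ranged from 0 to 3 for each of the 3 differences of effects and for cGAMP in MMTV-PyMT ECs, from 1 to 4 for cGAMP in implanted ECs and from 2 to 5 for MMTV-PyMT against normal ECs. Values that changed sign ranged from -0.071 to 0.20 (Pgf) and -0.036 to 0.13 (Plvap) for cGAMP in normal ECs, from -0.17 to 0.58 (Esm1) and -0.0060 to 0.18 (Tek) for cGAMP in MMTV-PyMT ECs, from -0.15 to 0.31 for Aplnr between implanted and normal ECs, from -0.11 to 0.48 for the Cxcr4 effect in MMTV-PyMT minus normal, from -0.061 to 0.45 for the Angpt2 effect in implanted minus normal, and from -0.39 to 0.065 (Aplnr), -0.42 to 0.087 (Angpt2) and -0.34 to 0.030 (Tie1) for implanted minus MMTV-PyMT. None of these values passed the test in the fit to all libraries.

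Scaling changed other signs. With quantile normalisation Plvap was at -0.049 for cGAMP in normal ECs, Tek at -0.023 in MMTV-PyMT ECs, and Cxcr4, Plvap, Angpt2 and Tie1 at -0.35, -0.18, -0.071 and -0.25 in implanted ECs, Aplnr and Plvap at -0.095 and -0.049 between implanted and normal ECs, and the effects in implanted minus normal ECs at -0.13 (Plvap), -0.25 (Angpt2) and -0.018 (Tie1). With total-read scaling Tek was at -0.048 in MMTV-PyMT, Cxcr4 and Tie1 at -0.15 and -0.058 in implanted ECs, Aplnr at -0.087 between implanted and normal ECs, and Plvap and Angpt2 at -0.023 and -0.11 for implanted minus normal. With endothelial-marker scaling, chosen after seeing the data, Tek was at -0.11 in MMTV-PyMT, Cxcr4 at -0.0016 in implanted ECs, Tie1 at 0.057 between MMTV-PyMT and normal ECs, Aplnr at -0.067 between implanted and normal ECs, Cxcr4 at -0.065 for MMTV-PyMT minus normal and Angpt2 at -0.028 for implanted minus normal. Of these, Plvap between implanted and normal ECs and Tie1 between MMTV-PyMT and normal ECs had passed in the fit to all libraries. Total-read scaling moved the median over all genes to -0.14 for cGAMP in MMTV-PyMT, -0.25 in implanted ECs and -0.13 for implanted against either tissue.

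Among all genes called, the share that was higher went with total-read scaling from 61.9% to 27.9% for cGAMP in MMTV-PyMT ECs (3285 against 1676 calls), from 52.0% to 22.3% in implanted ECs, from 51.4% and 45.8% to 34.4% and 30.9% for implanted against normal and MMTV-PyMT ECs, and to 26.3% to 39.1% for the differences of effects, from 65.4% to 67.3%. With quantile normalisation it was 49.4% and 39.1% for cGAMP in MMTV-PyMT and implanted ECs and 48.2% to 55.4% for the differences of effects. Endothelial-marker scaling gave 62.1% for cGAMP in normal ECs (from 43.1%), 78.1%, 35.9% and 10.1% for the tissue differences (from 52.8%, 51.4% and 45.8%), and 2295, 1014 and 3438 calls with cGAMP in normal, MMTV-PyMT and implanted ECs, against 4458, 1676 and 5464. For the differences of effects it gave 41.2% and 52.3% against normal ECs, and 311, 939 and 515 calls against 1171, 2602 and 1546. With a mean of at least 5 FPKM fewer genes were tested and 2702 and 3301 were called with cGAMP in normal and implanted ECs. Without MMTV-PyMT PBS library 2 or 3 or cGAMP library 2 or 3, 1105, 899, 866 and 1026 genes were called with cGAMP in MMTV-PyMT ECs, and for MMTV-PyMT minus normal 626 to 712 were called without normal PBS library 2 or 3, MMTV-PyMT PBS library 3 or MMTV-PyMT cGAMP library 2 or 3.

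Libraries with the same number did not deviate together: of 45 pairs 8 had a correlation of deviations over 0.1 (range -0.35 to 0.29), and 14 of 45 were best with their own number, and the labels do not tie the numbers to experiments, so the samples were read as sharing a number only. With the replicate block, Tek and Esm1 lost their differences of effect (adjusted p = 0.0577 and 0.0541), Plvap between implanted and normal and Tie1 between MMTV-PyMT and normal ECs lost their calls (0.068 and 0.0697), and Apln between MMTV-PyMT and normal ECs (0.0448) and Aplnr in both differences from normal ECs (0.0364 and 0.0437) gained one. Each member value rested on 104 reads or more.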
